A study of Homo sapiens with 6 samples.

Results

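The miR-320 family is a group of near-identical miRNAs whose members are taken from short hairpins. Its 5 members on the array, hsa-miR-320a, hsa-miR-320b, hsa-miR-320c, hsa-miR-320d and hsa-miR-320e (hsa for human, left out from here on), were chosen by the probe names in the scanner output, which held 5 of the 2555 human miRNA probes. MiRNAs were measured with 1-colour arrays in HuCCT1 cells, an established cell line of human cholangiocarcinoma (CCA, cancer of the bile ducts). The question was which miRNAs change with TGF-β, a cytokine that induces epithelial-mesenchymal transition (EMT, the loss of epithelial traits). The control group (0 ng/ml TGF-β, 72 h) and the TGF-β group (10 ng/ml, 72 h) had 3 arrays each, all from the same unmodified line. Neither the labels nor the methods say that the 3 arrays of a group came from separate cultures, so p-values measure the spread between these samples, which may be technical.

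Most miRNAs are cut out of a long nuclear transcript by the enzyme Drosha, exported, and cut again by Dicer to the mature form. The hairpin of miR-320a, the founding member, and that of miR-484 follow another route. Transcription starts at the 5′ end of the hairpin itself, which carries a cap, so that no cut by Drosha is needed, and Dicer releases the 3′ arm as the mature miRNA. Mirtrons reach Dicer by still another route, as short introns freed by splicing. TGF-β is known to act on the Drosha step as well as on transcription, since its SMAD proteins bind the Drosha complex and raise the processing of some miRNAs. A mature miRNA finds its targets mainly through its seed (bases 2 to 8).

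The sequences of the members are shown because the probes have to tell them apart by a few bases. RefSeq entries (GRCh38.p14) were matched for 4 of the 5 members, and the seed is in capitals, 5′ to 3′.
miR-320b: aAAAGCUGgguugagagggcaa
miR-320c: aAAAGCUGgguugagagggu
miR-320d: aAAAGCUGgguugagagga
miR-320e: aAAGCUGGguugagaagg
miR-4429: aAAAGCUGggcugagaggcg
Counted from the 5′ end of miR-320b, miR-320c differed from it by C20U and was identical over the first 19 bases. MiR-320d differed by G19A and was identical over the first 18 bases. MiR-320e began 1 base further in and differed by G17A. The 4 members shared a run of 15 bases, AAAGCUGGGUUGAGA, which no other of the 2370 mature miRNAs in the table held. The shifted start gave miR-320e another seed, AAGCUGG, which no other array miRNA with an entry had. The seed AAAGCUG of miR-320b, miR-320c and miR-320d was shared with 1 array miRNA outside the family, miR-4429. MiR-4429 differed from miR-320b by U11C, G19C and C20G. Since miR-320b, miR-320c and miR-320d differ at their 3′ ends alone, the probe of 1 may also hold RNA of another. The scanner output does not give the letters of the probes. The member without a matched entry, miR-320a, was not compared, and its probe may be subject to the same limit.

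The 4 members come from 7 hairpins, of which those of miR-320b, miR-320c and miR-320d are present in 2 copies each. A mature miRNA with several copies has 1 probe, so the array does not tell which locus it came from. MIR320B1 is at chr1:116671746-116671817 (plus strand) and MIR320B2 at chr1:224257040-224257110 (minus strand), within the span of the gene NVL. MIR320C1 is at chr18:21683518-21683589 (plus strand), within the span of ABHD3, and MIR320C2 at chr18:24321675-24321746 (plus strand), within the span of OSBPL1A. MIR320D1 is at chr13:40727816-40727887 and MIR320D2 at chrX:140926160-140926231, both on the minus strand. MIR320E is at chr19:46709282-46709354 (minus strand), within the span of PRKD2. No other gene of the RefSeq table spans MIR320B1, MIR320D1 or MIR320D2. The hairpins of miR-320b and miR-320e are shown with the mature miRNA in capitals, since they hold the base by which the start of miR-320e is shifted.
MIR320B2: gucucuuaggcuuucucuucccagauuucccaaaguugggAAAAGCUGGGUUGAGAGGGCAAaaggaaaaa
MIR320E: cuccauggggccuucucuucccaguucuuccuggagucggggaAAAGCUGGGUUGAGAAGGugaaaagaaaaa
In all 7 hairpins the mature miRNA lay on the 3′ arm, starting at base 41 to 44 and followed by 9 to 12 bases. In MIR320E the base before the annotated start is an A, so that the hairpin holds the same 4 leading A bases as the other 6. The 7 hairpins were 71 to 73 bases long, against a median of 80 over the 1562 hairpins of the table. Their predicted folding energy, not corrected for length, was -33.9 to -23.0 kcal/mol, against a median of -36.4 kcal/mol. Of all hairpins, 41.8% had an energy at or above -33.9 kcal/mol. Their GC content was 37.5% to 50.7%, against a median of 52.1%, and 46.9% of all hairpins were at or under 50.7%.

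Each spot was corrected by the mean of the 229 blank spots on its array. The 292 probes that every array detected then set the scale, their median being brought to 25 on each array, and this value is called the normalized signal. A probe was detected when its signal was above the blank mean by over 2 SD of the blank spots, and a miRNA was called expressed where 1 group or both had it detected on each of the 3 arrays. Between 327 and 464 probes were detected per array, and 323 miRNAs were expressed. With 1 spot per miRNA on an array, precision rests on the number of arrays. By the deposited names, 1 chip held the 3 control arrays with TGF-β array 1, and a second chip held TGF-β arrays 2 and 3. Of 5 epithelial marker miRNAs (the miR-200 family), 4 were detected on all 6 arrays and miR-429 on 5. The summed signal of these markers was 329 to 367 on the control arrays and 410 to 454 on the TGF-β arrays. The 2 brightest, miR-200c-3p and miR-200b-3p, had log2 changes with TGF-β of 0.40 and 0.30. Those of miR-429, miR-200a-3p and miR-141-3p were 0.048, -0.078 and -0.65, so the markers did not move alike. None of the 5 passed after adjustment (limma, adjusted p = 0.70 to 0.99). None of the 4 stromal markers or the hepatocyte marker miR-122-5p was detected on any array, and 1 of 5 blood markers, miR-223-3p, was detected on 1 array.

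MiR-320a, miR-320b, miR-320c and miR-320d were expressed in HuCCT1 cells by this rule, and miR-320e was not. The former 4 were detected on all 6 arrays, while miR-320e was detected on 2. With the local background around each spot subtracted instead, no member met the rule. In units of the SD of the blank spots, miR-320a lay 6.99 to 18.2 SD above the blank mean and miR-320b 3.49 to 11.5 SD above it. MiR-320c lay 2.68 to 8.15 SD and miR-320d 2.66 to 8.03 SD above the blank mean, so that on some arrays they were close to the limit of 2 SD. Both lay closest to the blank mean, in these units, on control array 2, where the SD of the blank spots was 2.15 in units of the normalized signal, the largest of the 6 arrays. On the other arrays this SD was 0.914 to 1.93.

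**Figure D1:**
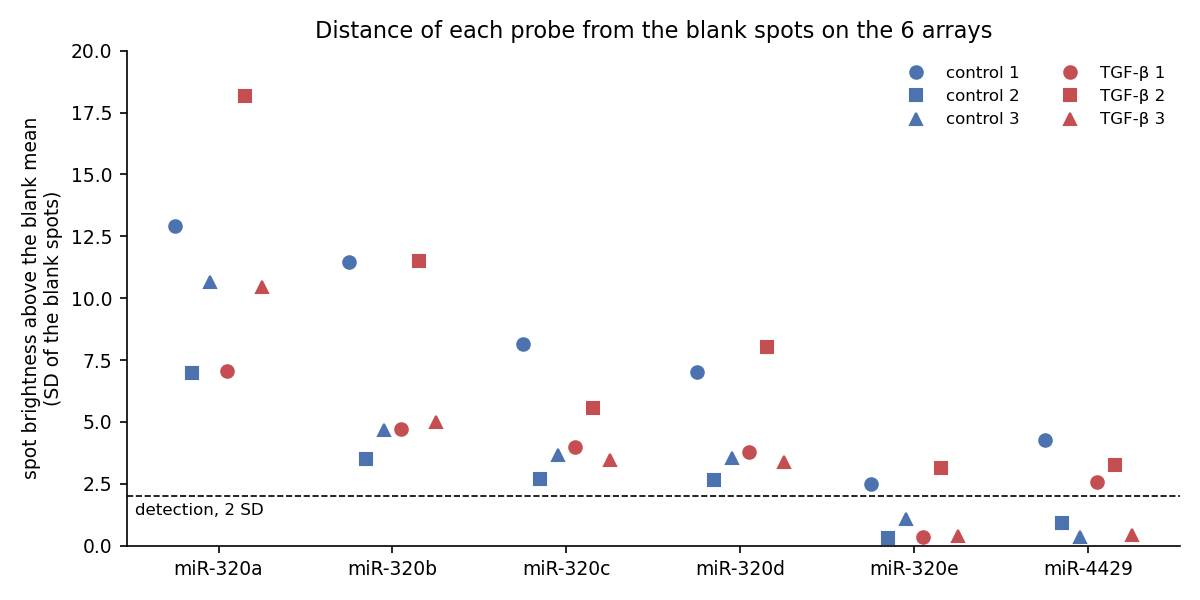
Distance of each probe from the blank spots, in SD of the blank spots, for the 5 members and miR-4429 on the 6 arrays; colour marks the group, the marker shape marks the array number and the dashed line is the detection limit of 2 SD. MiR-320a to miR-320d lie above the line on all 6 arrays, miR-320e on 2 and miR-4429 on 3.

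MiR-320e was detected on control array 1, at 2.50 SD above the blank mean, and on TGF-β array 2, at 3.14 SD. On the other 4 arrays it lay 0.290 to 1.06 SD above the blank mean, below detection. Its normalized signal where detected was 2.28 on control array 1 and 3.27 on TGF-β array 2. No change between the groups is given, since most of its signals were below detection. In the alternative that kept probes detected on at least 1 array, miR-320e was tested and did not pass the adjusted p. The arrays with a detected miR-320e were those on which the largest numbers of all probes were detected, 464 and 434. MiR-4429, which has the seed of miR-320b, was detected on the same arrays and on TGF-β array 1, with normalized signals of 3.90, 3.38 and 4.76 on control array 1, TGF-β array 2 and TGF-β array 1. It was detected on 1 of 3 control arrays and 2 of 3 TGF-β arrays and so was not expressed by the rule.

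The 4 expressed members all had a higher mean signal with TGF-β, by 1.16-fold to 1.38-fold, and none of the differences passed the test. The direction turned in some alternatives: log2 changes were below 0 for miR-320c with normexp, with spike scaling and in the authors' values, for miR-320b with normexp, and for miR-320a on the arrays of 1 chip alone. In limma with Benjamini-Hochberg adjustment over all expressed miRNAs, 0 of the 4 members passed at 0.05, and 0 of 4 had a p under 0.05 before adjustment. Over all 323 expressed miRNAs, 0% passed after adjustment and 6.5% before it. In 5 of 23 alternatives at least 1 member had a p under 0.05 before adjustment, and in none did a member pass after it. In those 5 alternatives, 12 to 31 of all miRNAs tested had a p under 0.05 before adjustment. A log2 change above 0 was found for 4 of 4 members and for 51.1% of all expressed miRNAs. The median log2 change of the 4 members was 0.45, and that of all expressed miRNAs was 0.013. No member had a ratio of means above 1.5, against 4.64% of all expressed miRNAs. The RNA came from whole cultures, so a change in the number of cells that hold a miRNA and a change in its amount per cell cannot be told apart.

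Control arrays 1, 2 and 3 gave miR-320a a normalized signal of 11.8, 15.0 and 11.1, and TGF-β arrays 1, 2 and 3 one of 13.0, 19.0 and 20.1. TGF-β arrays 2 and 3 lay above all control arrays, and TGF-β array 1 lay between control arrays 1 and 2, so that the groups overlapped. The mean was 12.6 ± 2.10 (SD, n = 3) in control cells and 17.4 ± 3.84 (SD, n = 3) with TGF-β. The log2 change was 0.45 with a 95% interval of -0.095 to 0.99 (limma, standard error 0.24, adjusted p = 0.79). A 2-sided exact permutation test gave p = 0.20, where groups of 3 cannot give a p below 0.10. The 2 arrays with the highest signal were those on the second chip. On the first chip, where TGF-β array 1 was the only treated array, the log2 change of miR-320a against the 3 control arrays was -0.020. The second chip held no control array, so chip and treatment cannot be told apart on it, and with chip as a block (0.052) the change rests on the same single treated array.

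For miR-320b the normalized signal was 10.5, 7.50 and 4.88 in the 3 control samples and 8.65, 12.0 and 9.64 in the 3 TGF-β samples, in the order of the array numbers. TGF-β array 2 alone lay above every control array, and control array 1 was brighter than TGF-β arrays 1 and 3. The mean was 7.62 ± 2.80 (SD, n = 3) in control cells and 10.1 ± 1.71 (SD, n = 3) with TGF-β. The log2 change was 0.46 with a 95% interval of -0.21 to 1.14 (limma, standard error 0.29, adjusted p = 0.93; exact permutation test, 2-sided, p = 0.30). It was 0.17 without control array 3 and 0.72 without control array 1 (limma, adjusted p = 0.999 and 0.99), and 0.18 on the first chip, with its 1 treated array.

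The groups of miR-320c overlapped widely. In the same order, the control samples gave 7.45, 5.76 and 3.83 and the TGF-β samples 7.33, 5.80 and 6.68, so that the brightest array of all was control array 1. The mean was 5.68 ± 1.81 (SD, n = 3) in control cells and 6.60 ± 0.767 (SD, n = 3) with TGF-β. The log2 change was 0.26 with a 95% interval of -0.35 to 0.87 (limma, standard error 0.27, adjusted p = 0.99; exact permutation test, 2-sided, p = 0.60). It was 0.0046 without control array 3, 0.48 without control array 1, and 0.17 when TGF-β array 1 was left out (limma, adjusted p = 0.999, 0.99 and 0.98).

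MiR-320d was the only member whose groups did not overlap. The control samples gave 6.41, 5.71 and 3.70 and the TGF-β samples 6.97, 8.38 and 6.53, in the same order. The lowest TGF-β array (6.53) and the highest control array (6.41) were closer to each other than the SD of the blank spots on any array. The groups of miR-320d did overlap when the arrays were scaled on their own detected probes, on the 75th percentile or on spike controls, and in the authors' values. The mean was 5.27 ± 1.41 (SD, n = 3) in control cells and 7.29 ± 0.969 (SD, n = 3) with TGF-β. The log2 change was 0.50 with a 95% interval of -0.071 to 1.07 (limma, standard error 0.25, adjusted p = 0.72; exact permutation test, 2-sided, p = 0.10, the smallest possible). Groups that did not overlap, with TGF-β higher, were found for 1 of 4 members and for 7.12% of all expressed miRNAs (9.91% in either direction). The log2 change of miR-320d was 0.26 when control array 3 was left out (limma, adjusted p = 0.999). On the first chip, with its 1 treated array, it was 0.37, and that of miR-320c was 0.35.

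**Figure D2:**
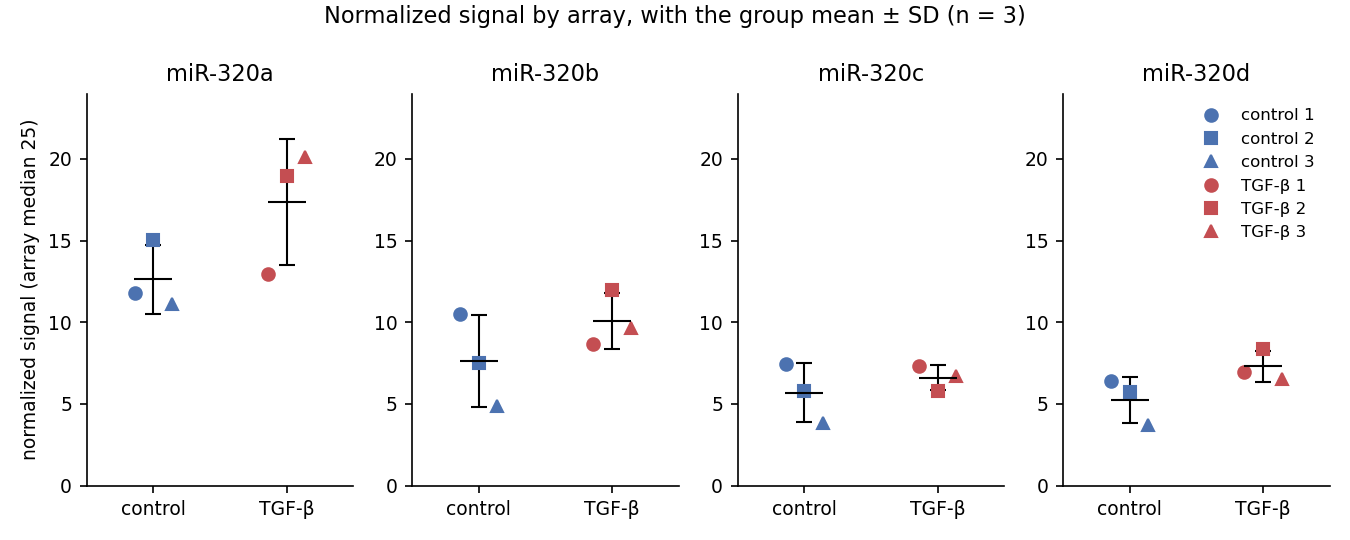
Normalized signal of the 4 expressed members on each array, by group, with the group mean and SD (bars, n = 3) on a linear axis; the marker shape gives the array number. Control array 3 is the lowest array for each of the 4 members, and for miR-320d alone, in this scaling, the 3 TGF-β arrays lie above the 3 control arrays.

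Control array 3 had the lowest normalized signal for all 4 members. The mean log2 signal of the 4 members was 3.13, 2.96 and 2.40 in the control samples, numbers 1 to 3, and 3.12, 3.36 and 3.26 in the TGF-β samples. TGF-β array 1 was thus between control arrays 1 and 2, and TGF-β arrays 2 and 3 were the highest. Measured against the median log2 signal of all expressed miRNAs on the same array, which removes the scaling, the family mean was -1.19, -1.40 and -1.93 in control cells and -1.29, -1.03 and -1.16 with TGF-β. Control array 3 remained the lowest array on this measure. Without control array 3 the median log2 change of the 4 members was 0.22, and it was 0.56 without control array 1. Set against the control array of the same number, miR-320a and miR-320d were higher with TGF-β in 3 of 3 replicates and miR-320b and miR-320c in 2 of 3, while 14.2% of all expressed miRNAs were higher in 3 of 3.

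**Figure D3:**
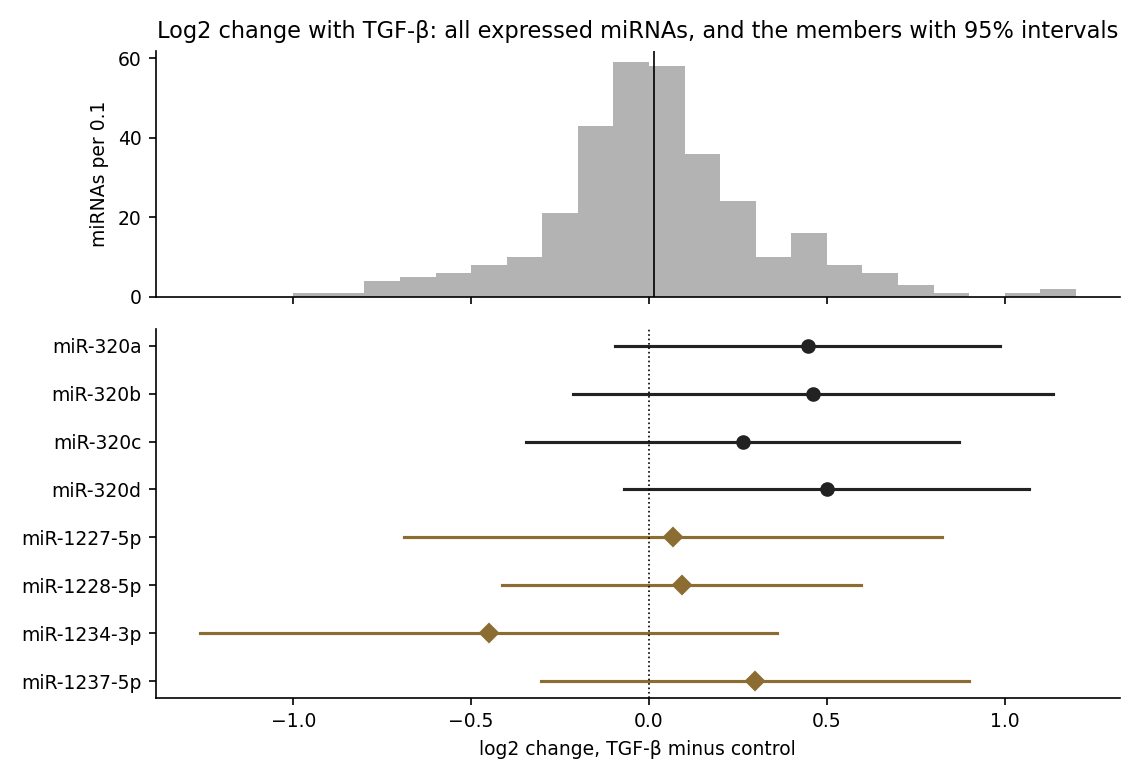
Upper panel: histogram of the log2 change (TGF-β minus control) of the 323 expressed miRNAs in bins of 0.1, with a line at their median of 0.013. Lower panel: log2 change with the 95% interval from limma for the 4 expressed members (circles) and 4 expressed miRNAs listed as mirtrons (diamonds). All 8 intervals include 0, and that of miR-1234-3p rests on 1 value set for an undetected signal.

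Since the level of an array cancels in a difference between 2 members on that array, the members were also compared with each other. There were 6 pairs of expressed members, and for each pair the difference in log2 signal was taken within each array and set against the treatment. The change with TGF-β was smallest between miR-320a and miR-320b, at -0.015 (standard error 0.35), and largest between miR-320c and miR-320d, at -0.24 (standard error 0.20). No pair had groups that did not overlap, and the exact permutation p was 0.50 to 1 (2-sided, adjusted p = 1 for each of the 6 pairs). The pair miR-320b and miR-320d was the steadiest, with a change of -0.038 (standard error 0.13). The difference between miR-320a and miR-320b itself ranged from 0.17 on control array 1 to 1.18 on control array 3. For miR-320c and miR-320d the largest departure was on TGF-β array 2, where miR-320c was lower by 0.53, while on the other 5 arrays it was 0.014 to 0.22 above miR-320d. Within arrays of the same replicate number, miR-320c minus miR-320d was lower with TGF-β in 3 of 3 pairs of arrays (changes of -0.15, -0.55 and -0.017) and miR-320a minus miR-320c was higher in 3 of 3 (changes of 0.16, 0.33 and 0.056). In the paired exact permutation test both gave p = 0.25, the smallest p that 3 pairs allow, and the other 4 member pairs moved in both directions. The level of such a difference depends on the probes and carries no order of abundance.

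**Figure D4:**
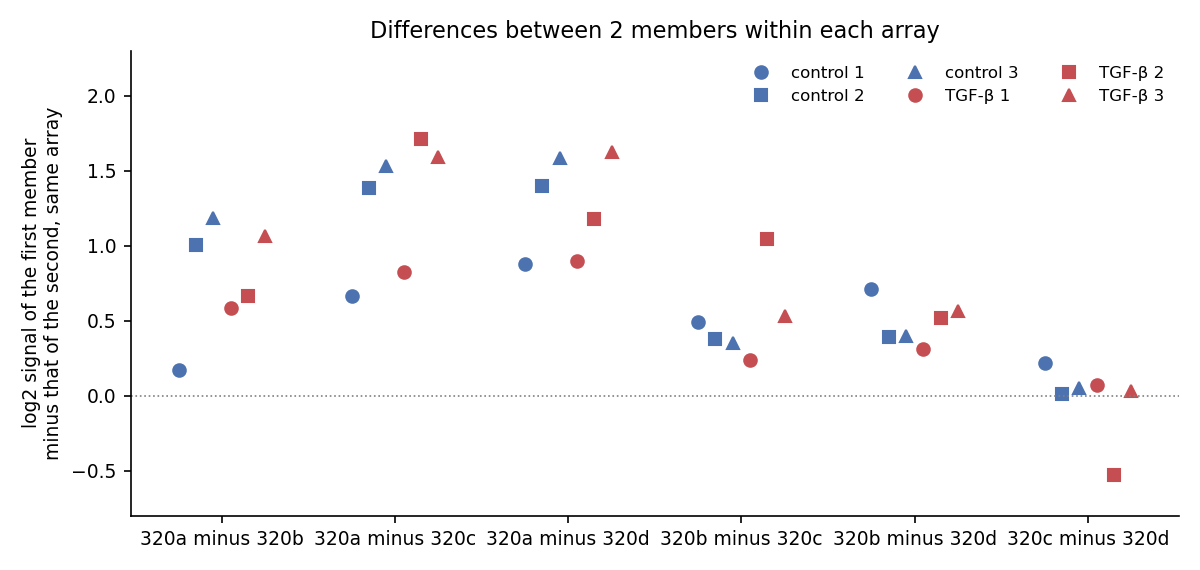
Difference in log2 signal between 2 members on the same array for the 6 pairs of expressed members; colour marks the group and the marker shape the array number. Control and TGF-β arrays overlap in every pair, and in each pair the spread within at least 1 group is wider than the shift between groups.

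Across the 6 arrays, the log2 signals of miR-320b and miR-320d followed each other most closely (Pearson r = 0.95 over 6 arrays). MiR-320c correlated with miR-320b by 0.78 and with miR-320d by 0.77. MiR-320a correlated with miR-320b by 0.59, with miR-320d by 0.63 and with miR-320c by 0.26. These values describe 6 points from 2 groups, and the points share the array, its background and, among miR-320b, miR-320c and miR-320d, a nearly common sequence. No entry was matched for miR-320a, so its likeness in sequence to the others was not compared.

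Among the 288 other expressed miRNAs detected on all 6 arrays, 5 had the profile closest to the mean of the 4 members over the 6 arrays. These were miR-15b-5p (Pearson r = 0.97, Spearman rho = 0.77), miR-3648 (0.95 and 0.71), miR-25-3p (0.93 and 0.71), let-7a-5p (0.92 and 0.89) and miR-4488 (0.92 and 0.83). They were picked as the highest of 288 values over 6 arrays, and shared regulation with the members was not tested. The mean of the members was 2.40 on control array 3 and 2.96 to 3.36 on the others, so that array weighs heavily in Pearson r. MiR-15b-5p belongs to the family that represses cyclins and BCL2, and its log2 change was 0.68 (limma, adjusted p = 0.72). Let-7a-5p, which represses RAS and HMGA2, had a log2 change of 0.62 (limma, adjusted p = 0.72). The log2 changes of miR-3648, miR-25-3p and miR-4488 were 0.20, 0.26 and 0.16 (limma, adjusted p = 0.99 each).

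A list of miRNAs outside the family, described as Drosha-independent, held miR-484 and the arms of 11 miRNAs described as mirtrons. It held 22 probes in all, of which 4 were expressed. MiR-484, which is made from a capped hairpin like that of miR-320a, was detected on control array 1 alone, at 3.63 SD above the blank mean, and lay 0.989 to 1.68 SD above it on the other 5 arrays. The expressed ones were miR-1227-5p, miR-1228-5p, miR-1234-3p and miR-1237-5p. All 4 are on the list as mirtrons and are called so here, while the route by which they or the miR-320 members are made was not tested. Of these, 3 had a log2 change above 0 and 1 below it, and their median was 0.080, against 0.45 for the miR-320 members and 0.013 for all expressed miRNAs. None of the 4 passed the adjusted p or an unadjusted p of 0.05 in limma.

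MiR-1237-5p had a mean signal of 73.1 ± 10.9 (SD, n = 3) in control cells and 92.0 ± 27.3 (SD, n = 3) with TGF-β, a log2 change of 0.30 (limma, adjusted p = 0.99). MiR-1228-5p and miR-1227-5p had log2 changes of 0.093 and 0.067. MiR-1234-3p was below detection on TGF-β array 3 and was set there to that array's lowest detected signal. With this value its log2 change was -0.45 (limma, adjusted p = 0.99), which depends on the value set. The sign of the median of the 4 mirtrons depended on the scaling. It was -0.14 when each array was scaled on its own detected probes, where the median of all miRNAs also moved, to -0.20. In the authors' normalized values the median was -0.17, against -0.24 for all miRNAs. MiR-1234-3p was not listed there on TGF-β array 3 and was left out. That median therefore covers miR-1237-5p, miR-1228-5p and miR-1227-5p, and is not a change of scaling alone.

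The authors' normalized values, in which the listed miRNAs of each array have a median of 25, listed miR-320a to miR-320d on all 6 arrays and miR-320e on 2. In these values miR-320a was 31.2, 22.1 and 20.1 in control samples 1 to 3 and 17.4, 42.0 and 27.6 in TGF-β samples 1 to 3. Control array 1 and TGF-β array 2 were the highest array of their group for each of the 4 members. MiR-320b was 15.9 ± 10.3 (SD, n = 3) in control cells and 17.2 ± 8.21 (SD, n = 3) with TGF-β, and miR-320d was 10.8 ± 5.48 (SD, n = 3) and 12.3 ± 5.43 (SD, n = 3). Dividing the TGF-β mean by the control mean gave 1.19 for miR-320a, 1.08 for miR-320b, 0.906 for miR-320c and 1.15 for miR-320d. On the log2 scale the 4 changes were 0.18, 0.20, -0.0024 and 0.23, and the median over all 303 miRNAs listed on all 6 arrays was -0.24. Relative to that median, the median of the 4 members was 0.43, against 0.44 in the values scaled on the common probes. For the members, the authors' values differ from the latter by a nearly constant factor on each array. The relative medians are therefore alike largely by construction.

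With the normexp correction of the local background and an offset of 50, the log2 changes of the 4 members lay between -0.036 and 0.016. This alternative changed the background and the offset together, and which of them moved the values was not tested. With the local background subtracted from each spot, an alternative chosen after the data were seen, no member was detected on all arrays of a group, and 72 miRNAs in all were expressed. The local background around the 5 members was 1.13 to 2.47 times the mean local background of the blank spots, and above it on all 6 arrays for each member. Its part in the signals was not tested. With the arrays scaled on their spike controls, also chosen after the data were seen, the log2 changes of the members were -0.054 to 0.18 and the median of all expressed miRNAs was -0.30. The scaling moved that median to -0.20 with each array's own detected probes, to -0.10 with the 75th percentile and to 0.66 with none, while the median of the 4 members relative to it is 0.44 under each of these by construction, since 1 factor per array moves all miRNAs alike.

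**Figure D5:**
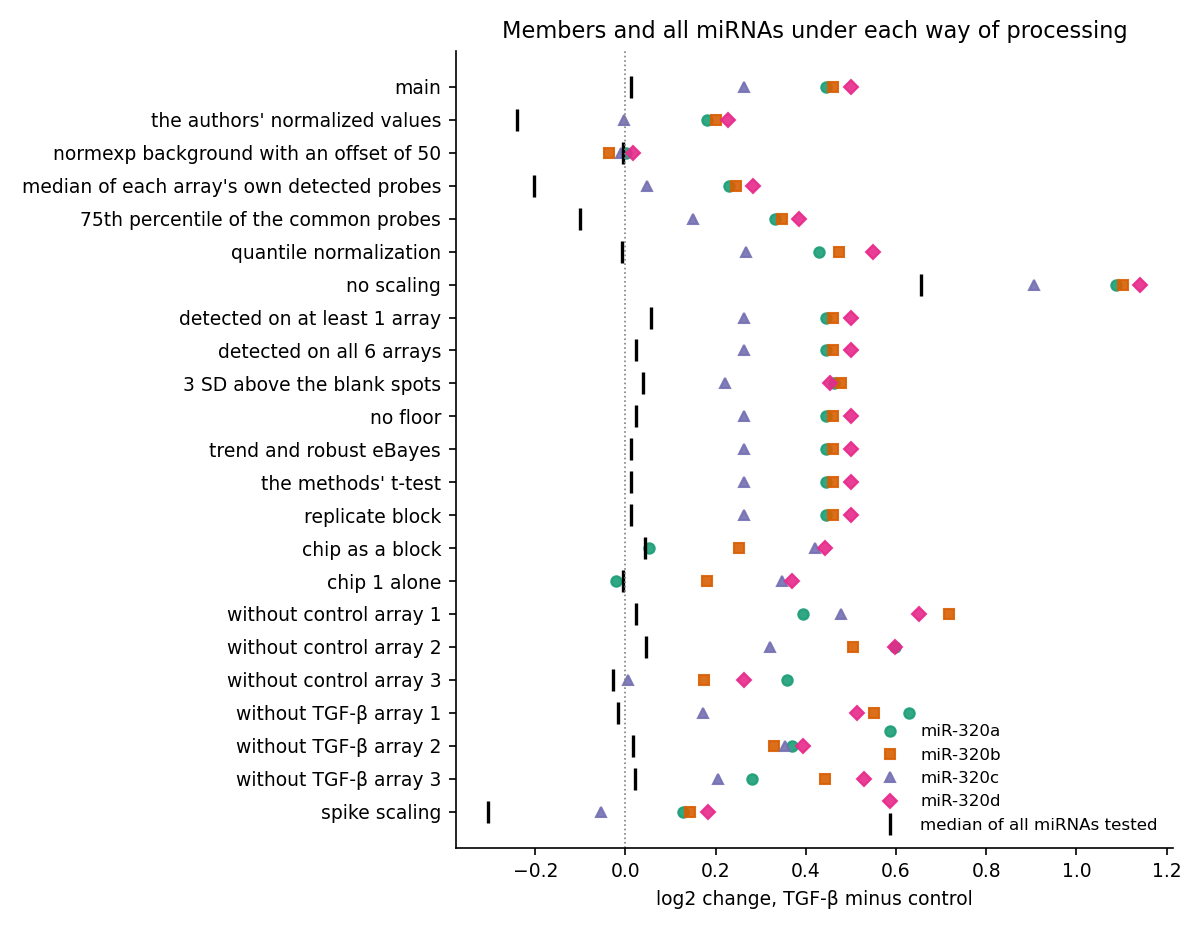
Log2 change (TGF-β minus control) of the 4 expressed members under each way of processing that kept all 4, with the median of all miRNAs tested as a black bar. The members keep to the right of the bar in all of these except normexp, where 2 of the 4 do, and the 4 arrays of chip 1, where 3 of the 4 do.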

How the data were processed

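MiRNAs were measured in 6 samples of HuCCT1 cells on 3D-Gene Human miRNA Oligo chips, grouped by the sample titles. In the scanner output the authors deposited the median spot intensity and a local background, on a linear scale and without normalization. In a second table the authors deposited normalized intensity values with a median of 25 per array. Spots that failed a flag (0 to 2 human probes per array) were treated as missing. Before log2 was taken, an undetected probe received the array's lowest signal among detected probes. Groups were compared with limma 3.58.1 (lmFit and eBayes, no block) in R 4.3.3 over all expressed miRNAs, and single values by a 2-sided exact permutation test in scipy 1.17.1. The limma step was tested on simulated data. Hairpins were folded with RNAfold 2.7.2.

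The members and lists were chosen with earlier results of these data known. The miRNAs named are the members, array miRNAs with a seed of a member, the marker lists and the 5 closest profiles. Expressed miRNAs of the Drosha-independent list are named as well. That list held miR-484 and, as mirtrons, miR-877, miR-1224 to miR-1229, miR-1234 and miR-1236 to miR-1238. Between arrays that share a replicate number, deviations from the mean of the group correlated by 0.12, 0.24 and 0.33 (322 miRNAs). This was taken as a pairing, while neither the labels nor the methods say what a number marks. No such correlation was computed between arrays of unlike number, so these values do not show that equal numbers belong together. Alternatives were other backgrounds, scalings, filters, detection limits, tests, blocks and left-out arrays.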

Additional observations from a re-analysis of the deposited data

How the results depend on the processing

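No member passed the adjusted p in any of the 22 of 23 alternatives that tested members (with local background none was tested). All were limma fits except the methods' t-test, which gave 21 miRNAs before adjustment and 1 after it, with 0 members in both. Of the 22 alternatives that kept the 4 members, all 4 log2 changes were above 0 in 18. The exceptions were miR-320a at -0.020 with the 4 arrays of chip 1, miR-320b at -0.036 with normexp, and miR-320c at -0.0024 in the authors' values, -0.0090 with normexp and -0.054 with spike scaling. The cause was not tested. For the median of the members, the value was 0.45, and -0.0043 with normexp and 1.10 with no scaling, where the median of all expressed miRNAs was 0.66. With arrays left out, the log2 change was 0.28 to 0.63 for miR-320a, 0.17 to 0.72 for miR-320b, 0.0046 to 0.48 for miR-320c and 0.26 to 0.65 for miR-320d, and the median was 0.22 to 0.56.

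The number of members whose groups did not overlap was 1. None was left (0) in the authors' values, with normexp or with each array's own detected probes. The number was also 0 with the 75th percentile, no scaling and spike scaling. With local background no member was tested. With arrays left out the number was 1 to 2, where a group of fewer arrays separates more easily. The share of all miRNAs without overlap was computed with the main processing alone (9.91% in either direction), so none stands beside these counts. The number of member pairs whose groups did not overlap was 0, and 2 with chip 1 alone, where the TGF-β group is 1 array; with arrays left out it was 0 to 2, the 2 coming without TGF-β array 1. The median of the 4 mirtrons was 0.080, and 0.72 with no scaling, 0.46 with chip as a block and 0.39 with chip 1 alone. It was -0.24 with spike scaling, and with arrays left out -0.13 (without TGF-β array 1) to 0.25. With local background the median was -0.54 over fewer than 4 mirtrons. MiR-1237-5p was not among them, its local background being above its spot intensity on control array 1 and TGF-β array 2.

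With the replicate number as a block (pairing the arrays), the log2 changes stayed at 0.45, 0.46, 0.26 and 0.50 for miR-320a to miR-320d (limma, adjusted p = 0.49, 0.58, 0.90 and 0.49). With the block, 2 of 4 members and 2 of 6 member pairs moved the same way in all 3 replicates. These counts replace the counts without overlap. Both members, miR-320a and miR-320d, were higher with TGF-β, and 14.2% of all expressed miRNAs were higher in all 3. For the pairs no share was computed to set beside the count. The block changed no call, with 1 member and 31 of all miRNAs at an unadjusted p under 0.05, against 0 and 21. A member had an unadjusted p under 0.05 in 5 alternatives: quantile normalization (1), no scaling (2), the replicate block (1), and without control array 1 or TGF-β array 1 (1 each). Among all miRNAs tested, in the same order, 18, 27, 31 and 12 of 323 and 30 of 335 did. With no scaling the median log2 change of all miRNAs was itself 0.66. MiR-320e, detected on 1 array of each group, did not meet the rule for expression.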
